A study of Mus musculus with 10 samples.

Results

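The genes described here are 52 components of the machinery that attaches chromosomes to the mitotic spindle and times their separation: kinetochore subunits, spindle checkpoint proteins, the chromosomal passenger complex, mitotic kinases, and the proliferation markers Mki67 and Top2a. They were taken as a named list and found by symbol among the 52636 Ensembl genes of the deposited count table. All 52 were present, and all 52 were abundant enough to be among the 13469 genes tested. The table holds bulk RNA-seq of nonclassical monocytes that were isolated from the marrow of mice by sorting. One group of 5 libraries came from LAIR1+/+ animals (WT) and the other group of 5 from LAIR1-/- animals (LAIRKO), with no treatment in either. LAIR1 is an inhibitory leukocyte receptor that binds collagen domains. The labels state a sort purity of 98% and an input of 5000 to 10000 cells. Age and sex of the mice, the way the allele was made and the animal behind each library were not given in these sources. The p-values therefore measure only how far these libraries vary, which may be technical.

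A kinetochore is the protein assembly that forms on the centromere of each chromosome and binds spindle microtubules. Its inner layer sits on nucleosomes that carry the histone variant CENP-A, its outer layer grips the microtubule, and the spindle checkpoint holds the cell in metaphase until every kinetochore is attached. Many of these genes are transcribed mainly in G2 and mitosis, so their transcripts are widely used to mark cycling cells, while others are also made in cells that do not divide. Nonclassical monocytes are generally regarded as non-dividing blood and marrow cells, and the marrow also holds dividing myeloid, erythroid and lymphoid precursors.

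Libraries held 12106209 to 15356924 counts. The 52 members together took 0.129% to 0.163% of the counts in WT and 0.205% to 0.334% in LAIRKO, and the smallest count of a member in any library was 17. Lair1 itself had 374 ± 27.7 CPM in WT libraries, against 0.226 ± 0.276 CPM in LAIRKO (SD, n = 5 each), and a two-sided exact permutation test gave p = 0.00794, the lowest value that 5 against 5 can reach. Each library matched its label. CPM stands for a gene's counts scaled to a common library total, with library sizes adjusted by the trimmed mean of M-values (TMM). The identity genes of nonclassical monocytes were abundant in both groups, and none of the 12 examined passed the test, although all 12 fold changes were below 0. Without WT replicate 5 it was 1 of the 12 that passed, as lower, and without LAIRKO replicate 3 it was 2. LAIRKO replicates 4 and 5 had the highest summed level of the members and LAIRKO replicate 3 the lowest of its group. Because the counts come from bulk RNA, a larger share of dividing cells and more RNA of these genes per cell cannot be told apart.

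Of the 52 members, 34 were higher in LAIRKO and none was lower (edgeR quasi-likelihood test, Benjamini-Hochberg adjusted p under 0.05 over all tested genes). A gene is said to pass, rise or be called only by this threshold. Across all 13469 tested genes 6.79% passed in either direction, 5.11% as higher and 1.68% as lower. The median log2 fold change of the members was 1.09, beside -0.00 over all tested genes, and 50 of the 52 values were above 0. For 29 of the 34, which is 29 of all 52 members, the change exceeded 2-fold. Of all tested genes 2.49% were called higher by over 2-fold. The fold of the 34 ran from 1.47 for Mad2l1 to 3.69 for Bub1. In 29 of the 34, again 29 of all 52 members, every LAIRKO library lay above every WT library. The same held for 5.61% of all tested genes, called or not. The other 5 were Knl1, Knstrn, Zwilch, Incenp and Plk1, and in 4 of them, all but Knstrn, the overlap came from LAIRKO replicate 3 alone. Without LAIRKO replicates 4 and 5 the count fell to 18 members, with 2.67% of all genes called, and without WT replicates 1 and 4 it was also 18, with 2.40% of all genes called. Of the 34, 17 passed in both of these fits: Cenpa, Nuf2, Spc24, Cenpe, Ska2, Bub1, Bub1b, Sgo1, Sgo2a, Aurkb, Cdca8, Aurka, Tpx2, Cdc20, Ube2c, Mki67 and Top2a. They passed in every other alternative that was run too. The 16 members no longer called without LAIRKO replicates 4 and 5 were Oip5, Cenph, Cenpi, Cenpn, Cenpp, Cenpw, Knl1, Cenpf, Ska1, Ska3, Knstrn, Zwilch, Ttk, Mad2l1, Incenp and Plk1. Their log2 fold changes in that fit ran from 0.46 to 1.52 and their adjusted p from 0.0537 to 0.276. Without WT replicates 1 and 4 the members lost were 15 of these, all but Cenpn, and Birc5. The 18 members that did not pass had a median log2 fold change of 0.34, and 9 of them had an unadjusted p under 0.05 in the same edgeR fit. Markers of myeloid progenitors moved with the members, with a summed level of 1127 to 1945 CPM in WT and 4015 to 7782 CPM in LAIRKO, and their part in the result was not tested.

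**Figure D1:**
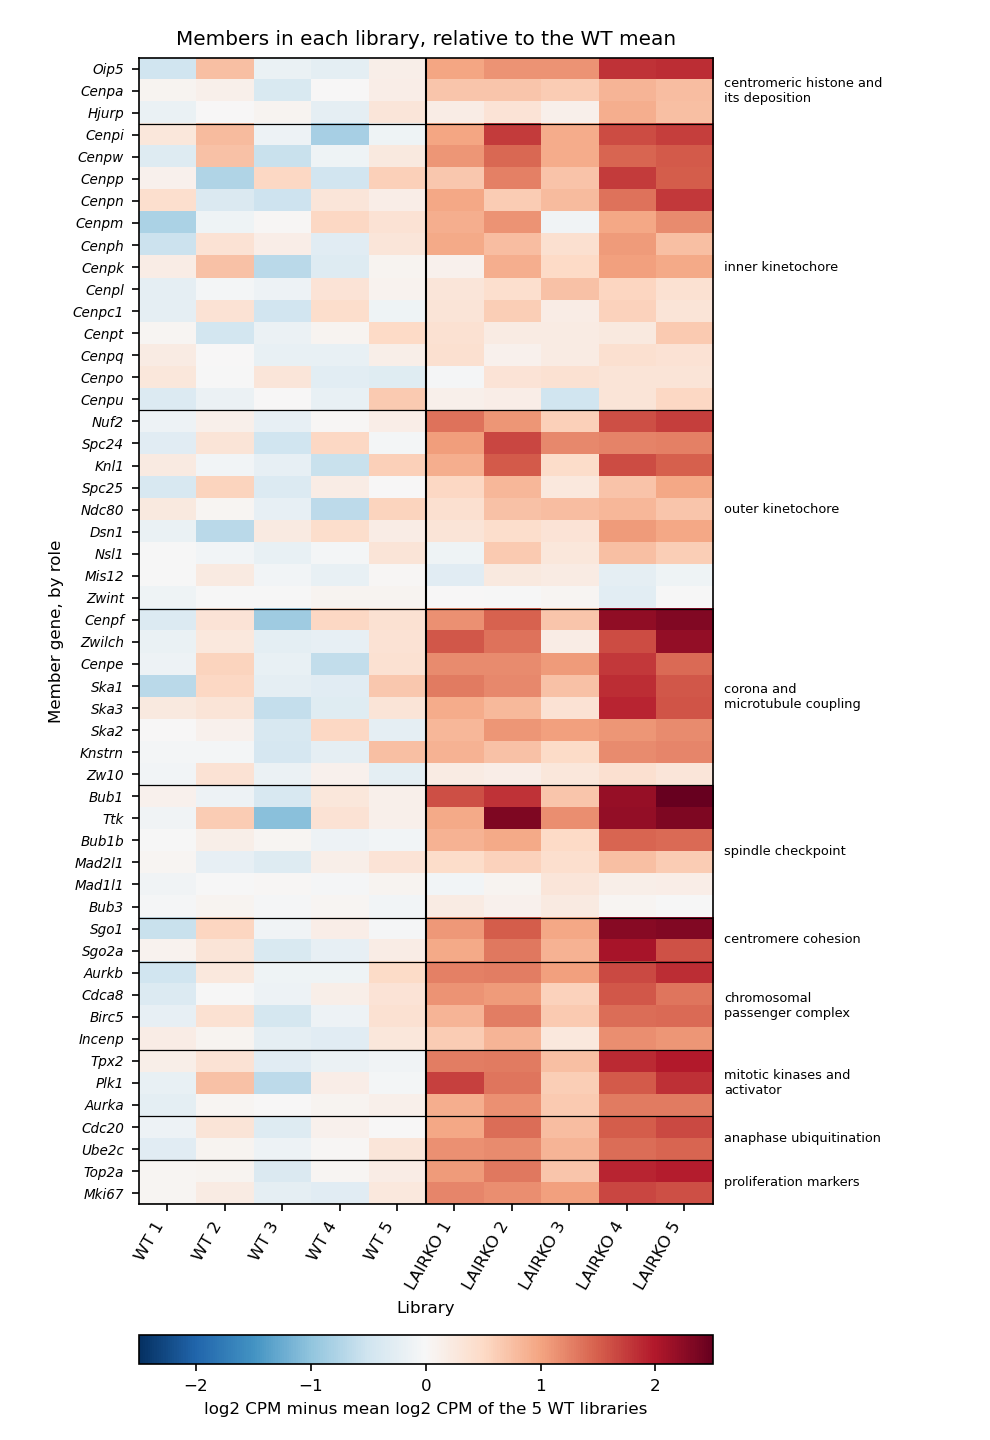
Level of each of the 52 members (rows, grouped by role) in each library (columns), as log2 CPM minus the mean log2 CPM of the 5 WT libraries, with red above and blue below. The LAIRKO columns are red for most rows, darkest in replicates 4 and 5 and palest in replicate 3, and the rows of Mis12, Zwint, Mad1l1 and Bub3 are pale in all 10 columns.

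Many promoters of mitotic genes carry a cell cycle homology region (CHR), the element through which the MuvB complex represses them in resting cells and, with B-MYB and FOXM1, activates them in G2, and a CCAAT box, the site of NF-Y. To let the sequences be seen beside the values, promoter windows of 300 bases (250 before to 50 after each start, RefSeq, GRCm38.p6) were searched on both strands for TTTGAA, the CHR core, and for CCAAT. Entries matched 45 of the 52 members by symbol. TTTGAA was found in 22 of them (48.9%), beside 20.2% of the 27025 genes with an entry and 14.6% of the 9317 tested genes with one. CCAAT was found in 32 (71.1%), beside 41.1% and 43.3%, and both motifs in 18 (40.0%), beside 7.97% and 6.0%. Among the 28 matched members that rose, 16 held TTTGAA (57.1%), as did 6 of the 17 that did not pass (35.3%). Limited to matches that begin no more than 70 bases before the start, the counts were 15 of 28 and 4 of 17, beside 4.51% of tested genes. A match is only a stretch of letters, and binding was not measured.

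The stretches printed run from 130 bases before to 50 bases after the start, in lower case with both motifs, on either strand, in capitals. Cdc20 (chr4:118437294-118437473, minus strand), Plk1 (chr7:122159305-122159484, plus strand) and Ttk (chr9:83834559-83834738, plus strand) rose and hold both motifs. Nuf2 (chr1:169531415-169531594, minus strand) rose and holds neither in its window. Bub3 (chr7:131560240-131560419, plus strand) did not pass the test and holds both (1 of its 2 annotated starts is shown).
Cdc20: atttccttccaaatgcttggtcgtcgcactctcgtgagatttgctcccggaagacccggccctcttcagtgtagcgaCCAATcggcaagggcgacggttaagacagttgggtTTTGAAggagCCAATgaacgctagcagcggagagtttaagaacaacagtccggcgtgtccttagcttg
Plk1: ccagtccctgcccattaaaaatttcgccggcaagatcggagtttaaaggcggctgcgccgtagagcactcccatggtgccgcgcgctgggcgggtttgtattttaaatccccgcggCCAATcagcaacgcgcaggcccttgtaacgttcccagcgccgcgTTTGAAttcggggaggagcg
Ttk: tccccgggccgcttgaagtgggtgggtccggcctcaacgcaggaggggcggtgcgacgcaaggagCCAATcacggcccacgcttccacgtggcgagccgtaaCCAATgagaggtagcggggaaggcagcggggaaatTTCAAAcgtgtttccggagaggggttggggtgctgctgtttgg
Nuf2: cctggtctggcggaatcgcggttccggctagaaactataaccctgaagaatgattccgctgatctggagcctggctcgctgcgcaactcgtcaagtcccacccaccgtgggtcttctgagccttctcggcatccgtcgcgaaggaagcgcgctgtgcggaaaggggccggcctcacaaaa
Bub3: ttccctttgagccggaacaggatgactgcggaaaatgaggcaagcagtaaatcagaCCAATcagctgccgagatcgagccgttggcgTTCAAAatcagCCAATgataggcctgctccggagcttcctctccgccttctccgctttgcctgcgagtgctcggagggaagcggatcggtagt
The first base of TTTGAA or its reverse complement lay at -18 in Cdc20, +31 in Plk1, +8 in Ttk and -43 in Bub3, counted from the start as +1.

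At the base of the kinetochore, the centromeric histone and its deposition factors had 2 of 3 members higher. Cenpa encodes the histone H3 variant that marks the centromere. It stood at 41.1, 42.6, 30.3, 39.6 and 44.0 CPM in WT replicates 1 to 5 and at 63.3, 63.5, 61.1, 71.0 and 66.7 CPM in LAIRKO replicates 1 to 5. All 5 LAIRKO values were above all 5 WT values and lay close together, and the log2 fold change was 0.72 ± 0.11 (SE; adjusted p = 0.00259). Oip5, a subunit of the Mis18 complex that primes centromeres for new CENP-A, was a low-level transcript with 2.17, 5.22, 2.75, 2.62 and 3.41 CPM in the WT libraries and 6.07, 6.73, 6.76, 10.8 and 11.2 CPM in LAIRKO. The groups did not overlap (1.36 ± 0.28, adjusted p = 0.0116), with LAIRKO replicates 4 and 5 highest and an adjusted p of 0.104 without them. Exons of Oip5 overlap those of the spindle gene Nusap1 on the other strand over 9.67% of their length. Nusap1 held a mean of 624 counts against 79.7 for Oip5 and itself rose, and without a known strand setting reads in the shared part cannot be assigned. Hjurp, the chaperone that deposits CENP-A, had a higher level per annotated exon length than the other 2. It was at 17.5 CPM per kilobase of exon in WT against 6.74 for Cenpa and 1.82 for Oip5. Its values were 129, 144, 151, 124 and 179.2 CPM in the WT libraries and 164, 183, 158, 270.0 and 244 CPM in LAIRKO. They overlapped, since WT replicate 5 lay above LAIRKO replicates 1 and 3, and the difference did not pass (0.48 ± 0.16, adjusted p = 0.0936).

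Genes of the inner kinetochore, the network of CENP proteins built on CENP-A nucleosomes, were higher for 5 of 13 members, with a median log2 fold change of 0.66. Cenpi, a subunit of the CENP-H/I/K/M group, stood at 10.3, 14.7, 7.81, 4.76 and 7.90 CPM in the WT libraries and 16.9, 28.7, 16.2, 26.5 and 28.3 CPM in LAIRKO. Every LAIRKO value lay above every WT value (1.36 ± 0.28, adjusted p = 0.0104). Cenpw, a histone-fold partner of CENP-T, was at 3.60, 7.49, 3.05, 4.14 and 5.34 CPM in the WT libraries and 9.65, 12.1, 8.49, 12.2 and 12.97 CPM in LAIRKO. It too showed no overlap (1.23 ± 0.25, adjusted p = 0.00969). Without LAIRKO replicates 4 and 5 neither passed (adjusted p = 0.0757 for Cenpi and 0.0735 for Cenpw). Cenpn, a subunit that reads the CENP-A nucleosome, rose by 1.12 on the log2 scale (adjusted p = 0.0185, and 0.125 without that pair). Cenpp (log2 fold change 1.14) and Cenph (0.76) were the 2 members of this layer closest to the threshold, with adjusted p = 0.0496 and 0.0438. Each was no longer called in 7 of the 10 fits made with 9 libraries. Exons of Cenpp overlap those of Ippk on the other strand over 12.3% of their length, and Ippk had a mean of 224 counts against 56.9.

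The other 8 inner kinetochore genes had positive fold changes that did not pass. The largest was that of Cenpm (0.81 ± 0.27, adjusted p = 0.0948), followed by Cenpk (0.66), Cenpl (0.47), Cenpc1 (0.37), Cenpt (0.31), Cenpq (0.29), Cenpo (0.25) and Cenpu (0.12). Cenpc1 and Cenpt encode the proteins that link the inner layer to the outer one. Cenpq had the highest WT level per length of this layer, 7.605 CPM per kilobase, with 22.6, 19.9, 17.3, 17.4 and 21.8 CPM in the WT libraries and 25.8, 21.3, 22.5, 26.0 and 25.4 CPM in LAIRKO. Its groups overlapped narrowly, and WT replicates 1 and 5 were inside the LAIRKO range. Cenpu, which binds CENP-Q and recruits Plk1, stood at 4.43, 5.13, 5.73, 4.97 and 8.91 CPM in the WT libraries and 6.199, 6.32, 3.98, 7.09 and 8.11 CPM in LAIRKO. WT replicate 5 was the highest library and LAIRKO replicate 3 the lowest, and the sign of the fold change turned to -0.09 without LAIRKO replicates 4 and 5 and to -0.06 without WT replicates 1 and 4. Exons of Cenpu overlap those of Primpol on the other strand over 26.7% of their length, with a mean of 273 counts for Primpol and 83.2 for Cenpu.

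In the outer kinetochore, whose Ndc80 complex binds the microtubule and whose Mis12 complex and Knl1 hold it in place, 3 of 9 members were higher. Nuf2, the partner of Ndc80 in the microtubule-binding head, stood at 11.9, 14.1, 11.3, 13.2 and 14.6 CPM in the WT libraries and 33.0, 27.8, 19.7, 39.8 and 43.0 CPM in LAIRKO. The lowest LAIRKO value, that of replicate 3, was above all WT values (1.33 ± 0.20, adjusted p = 0.00188). Spc24, at the base of the same complex, was at 14.8, 22.6, 12.8, 25.7 and 17.4 CPM in the WT libraries and 37.1, 57.5, 41.7, 42.4 and 43.0 CPM in LAIRKO, with LAIRKO replicate 2 well above the rest of its group (1.25 ± 0.19, adjusted p = 0.00230). Knl1, the scaffold on which the checkpoint kinase Bub1 docks, rose by 1.22 on the log2 scale (adjusted p = 0.0109, and 0.0815 without LAIRKO replicates 4 and 5). The remaining subunits of the Ndc80 complex had smaller fold changes that did not pass: 0.64 for Ndc80 (adjusted p = 0.0745) and 0.64 for Spc25 (adjusted p = 0.0690). The difference between subunits of the complex was not tested.

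Subunits of the Mis12 complex and Zwint did not pass. Dsn1 and Nsl1 had log2 fold changes of 0.61 and 0.46 (adjusted p = 0.121 and 0.120). In WT Mis12 was the second most abundant member of all per length, at 23.9 ± 2.55 CPM per kilobase, and in LAIRKO it was at 23.6 ± 4.08 (SD, n = 5 each). Its values were 70.8, 83.7, 68.5, 63.0 and 73.2 CPM in the WT libraries and 59.0, 85.1, 82.8, 61.2 and 66.6 CPM in LAIRKO. The LAIRKO range enclosed the WT range, and the log2 fold change was -0.02 ± 0.13 (adjusted p = 0.961). Zwint, which links Knl1 to the RZZ complex, averaged 97.9 ± 4.73 CPM in WT libraries and 95.3 ± 8.06 CPM in LAIRKO, with a log2 fold change of -0.04 ± 0.09 (adjusted p = 0.852). These were the 2 values below 0 among the members, and both were above 0 when libraries were scaled by their totals (0.11 for Mis12 and 0.09 for Zwint). Under library totals the median over all tested genes was 0.13.

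**Figure D2:**
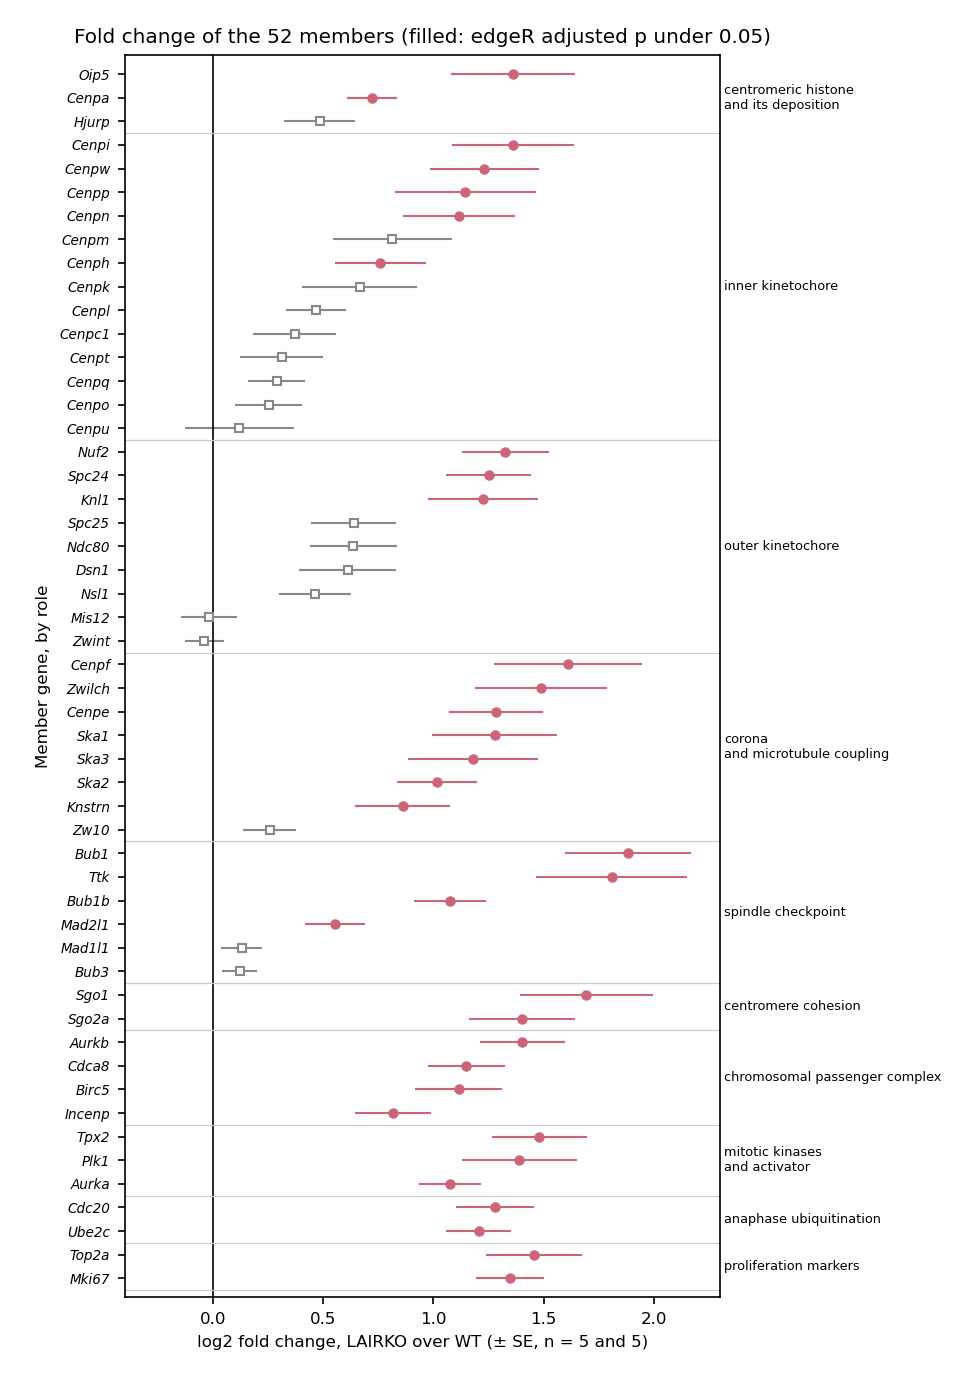
Log2 fold change of LAIRKO over WT for each member with its SE (n = 5 libraries per group), grouped by role, where filled circles passed the edgeR test and open squares did not. All 34 filled circles lie to the right of 0, and the open squares gather in the inner and outer kinetochore.

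Of the 8 genes that couple kinetochores to microtubules or form their fibrous corona, 7 were higher, with a median log2 fold change of 1.23. Cenpe encodes the kinesin that moves chromosomes to the spindle equator. It stood at 17.3, 27.5, 16.4, 12.3 and 24.3 CPM in the WT libraries and 42.5, 42.4, 39.4, 63.9 and 49.99 CPM in LAIRKO, without overlap (1.28 ± 0.21, adjusted p = 0.00353). Ska2, a subunit of the Ska complex that tracks microtubule ends, was at 7.28, 7.74, 5.43, 10.3 and 6.12 CPM in the WT libraries and 12.8, 15.5, 14.6, 15.4 and 16.3 CPM in LAIRKO. Its LAIRKO values were tightly grouped and all above WT (1.02 ± 0.18, adjusted p = 0.00554). Its partners Ska1 (1.28) and Ska3 (1.18) rose as well, and of the 10 fits with 9 libraries Ska3 was not called in 5 and Ska1 in 1.

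Cenpf, a large protein of the outer corona, had the largest fold change of this group, 1.61 ± 0.33 on the log2 scale (adjusted p = 0.0119). Its LAIRKO values spread from 19.3 CPM in replicate 3 to 59.4 CPM in replicate 5, and without replicates 4 and 5 the fold change was 1.05 with adjusted p = 0.0869. Knstrn, which acts at kinetochores and on spindle microtubules, rose by 0.86 and was not called in 7 of the 10 fits with 9 libraries. The RZZ complex, which brings the checkpoint proteins Mad1 and Mad2 to kinetochores, gave different values for its 2 listed subunits. Zwilch rose by 1.49 on the log2 scale (adjusted p = 0.00994), although LAIRKO replicate 3, at 6.497 CPM, lay inside the WT range. The adjusted p of Zwilch was 0.0728 without LAIRKO replicates 4 and 5. Zw10, which also acts in membrane traffic outside mitosis, stood at 42.8, 57.2, 40.5, 48.1 and 38.0 CPM in the WT libraries and 52.02, 50.2, 54.6, 59.0 and 55.2 CPM in LAIRKO. Its groups overlapped through WT replicate 2, and the difference did not pass (0.26 ± 0.12, adjusted p = 0.232).

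Spindle checkpoint genes included both the largest fold changes and some of the smallest, with 4 of 6 members higher. Bub1 (ENSMUSG00000027379, GRCm38 chromosome 2, 127801122 to 127831865, minus strand) encodes the kinase that recruits other checkpoint proteins. It stood at 12.5, 10.7, 8.85, 14.1 and 12.6 CPM in the WT libraries and 35.3, 40.4, 18.8, 52.6 and 70.2 CPM in LAIRKO. The groups did not overlap, the LAIRKO values ranged over 3.74-fold from replicate 3 to replicate 5, and the log2 fold change was 1.88 ± 0.29 (adjusted p = 0.00201). Without LAIRKO replicates 4 and 5 it was 1.42 (adjusted p = 0.0128). Ttk, the Mps1 kinase that starts checkpoint signalling, had the second largest value, 1.81 ± 0.34 (adjusted p = 0.00712), at 5.56 ± 2.08 CPM in WT and 19.5 ± 8.07 CPM in LAIRKO. Without LAIRKO replicates 4 and 5 it was 1.52 and did not pass (adjusted p = 0.0608). Bub1b encodes BubR1, a part of the complex that inhibits the anaphase-promoting complex. It was at 47.6, 53.0, 49.8, 44.2 and 45.7 CPM in the WT libraries and 87.2, 92.0, 67.8, 132 and 127 CPM in LAIRKO, and its lowest LAIRKO library was above its highest WT library (1.07 ± 0.17, adjusted p = 0.00218).

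The Mad genes and Bub3 moved less or did not pass. Mad2l1, which encodes the Mad2 protein of the inhibitory complex, rose by 0.55 on the log2 scale (adjusted p = 0.0289), and 6 of the 10 fits with 9 libraries did not call it. Mad1l1, its anchor at the kinetochore, was at 64.3 ± 2.74 CPM in WT and 70.3 ± 6.37 CPM in LAIRKO (a log2 difference of 0.13 ± 0.09, adjusted p = 0.454). Bub3, the partner that carries Bub1 and BubR1 to Knl1, was the most abundant member per length, at 30.0 ± 1.17 CPM per kilobase in WT and 32.6 ± 2.24 in LAIRKO. It stood at 206, 221, 207, 216 and 201 CPM in the WT libraries and 241, 228, 247, 218 and 209 CPM in LAIRKO, and here LAIRKO replicates 4 and 5 were the lowest of their group. The ranges overlapped, and the log2 fold change was 0.12 ± 0.08 (adjusted p = 0.407). With library totals the value was 0.25, and Bub3 was called.

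**Figure D3:**
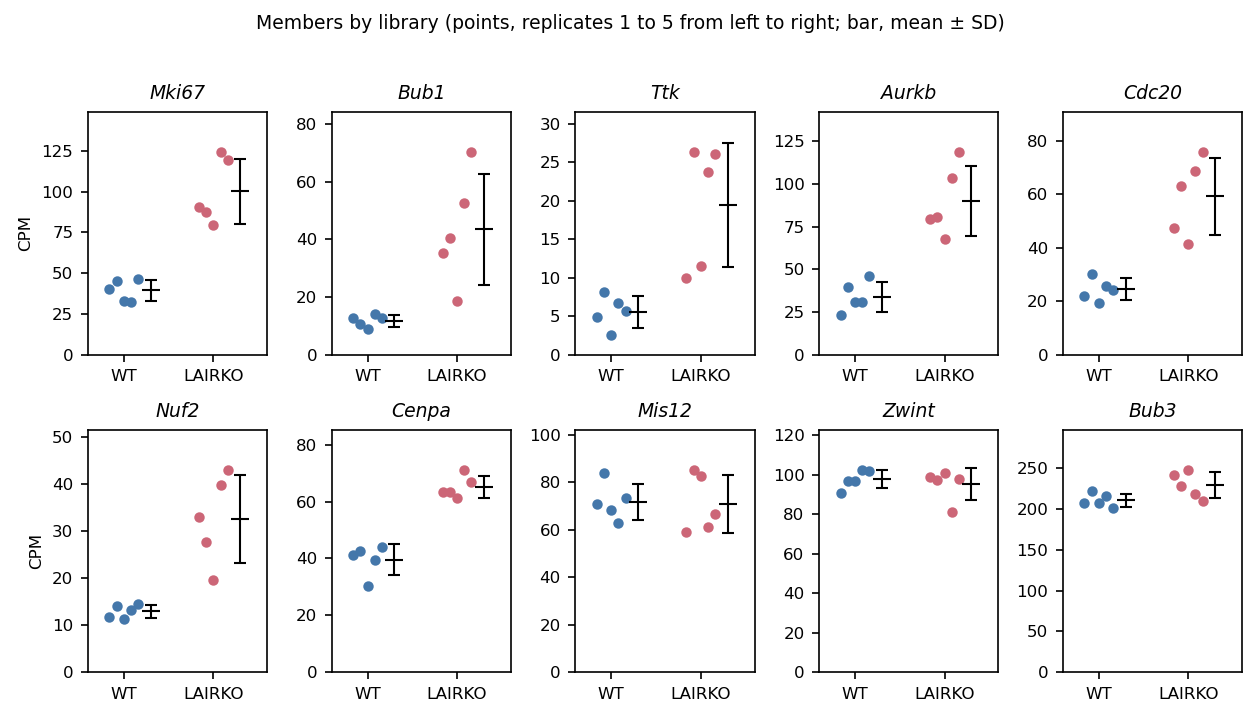
CPM of 10 members in each library (points, replicates 1 to 5 from left to right) with the mean and SD of each group of 5 (black bars), on axes that start at 0. The groups are apart for Mki67, Bub1, Ttk, Aurkb, Cdc20, Nuf2 and Cenpa and overlap for Mis12, Zwint and Bub3.

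Both shugoshins, which protect cohesin at the centromere until anaphase, were higher. Sgo1 stood at 3.18, 6.82, 4.39, 5.24 and 4.57 CPM in the WT libraries and 9.91, 13.5, 9.15, 22.7 and 23.3 CPM in LAIRKO (1.69 ± 0.30, adjusted p = 0.00528). Sgo2a was at 7.44, 8.75, 5.35, 6.07 and 7.90 CPM in the WT libraries and 13.4, 17.6, 12.8, 29.1 and 21.01 CPM in LAIRKO (1.40 ± 0.24, adjusted p = 0.00413). Neither showed overlap, and in both LAIRKO replicates 4 and 5 were highest. Exons of Sgo2a overlap those of Kctd18 on the other strand over 35.0% of their length. Kctd18 had a mean of 345 counts against 178 for Sgo2a and was not called (-0.18 on the log2 scale, adjusted p = 0.570).

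All 4 genes of the chromosomal passenger complex, which destabilises wrong attachments and acts in cytokinesis, were higher. Aurkb, its kinase, stood at 23.4, 39.5, 30.6, 30.6 and 45.9 CPM in the WT libraries and 79.6, 80.8, 67.5, 103 and 119 CPM in LAIRKO. Its groups were well apart (1.40 ± 0.19, adjusted p = 0.00127). Cdca8, which encodes the borealin subunit, was at 28.4, 36.0, 33.2, 39.9 and 45.7 CPM in the WT libraries and 78.9, 76.1, 54.2, 106 and 91.7 CPM in LAIRKO (1.15 ± 0.18, adjusted p = 0.00205). Incenp, the scaffold, had the highest WT level per length of the complex, 13.5 CPM per kilobase. Its values were 65.5, 60.1, 49.0, 47.0 and 69.6 CPM in the WT libraries and 88.9, 104, 68.7, 129 and 123 CPM in LAIRKO. LAIRKO replicate 3 fell just below WT replicate 5, and the difference passed (0.82 ± 0.17, adjusted p = 0.0126). Birc5, which encodes survivin, went from 31.5 ± 8.14 CPM in WT to 68.2 ± 15.5 CPM in LAIRKO and rose by 1.11 on the log2 scale (adjusted p = 0.00494). Without WT replicates 1 and 4 neither Incenp nor Birc5 passed (adjusted p = 0.0756 and 0.0577). Without LAIRKO replicates 4 and 5 Incenp did not pass (adjusted p = 0.0877) and Birc5 did (0.0444).

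The mitotic kinases Aurka and Plk1 and the Aurka activator Tpx2 were all higher. Aurka, which acts at spindle poles, stood at 22.5, 27.6, 27.0, 27.9 and 29.3 CPM in the WT libraries and 50.4, 59.2, 41.9, 65.7 and 65.9 CPM in LAIRKO. The groups did not overlap (1.08 ± 0.14, adjusted p = 0.000934). Tpx2 was at 27.1, 31.8, 20.3, 22.4 and 23.1 CPM in the WT libraries and 59.4, 60.5, 41.7, 89.3 and 97.1 CPM in LAIRKO, again without overlap (1.48 ± 0.22, adjusted p = 0.00169). Plk1, which drives mitotic entry, kinetochore attachment and cytokinesis, rose by 1.39 on the log2 scale (adjusted p = 0.00694). Its promoter is among those printed above. WT replicate 2, at 30.9 CPM, was above LAIRKO replicate 3, at 28.3 CPM, and the adjusted p was 0.0537 without LAIRKO replicates 4 and 5.

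Both ubiquitination factors of anaphase onset were higher. Cdc20, the activator of the anaphase-promoting complex and the target of the checkpoint, stood at 22.1, 30.3, 19.3, 25.8 and 24.3 CPM in the WT libraries and 47.3, 63.0, 41.3, 68.6 and 75.6 CPM in LAIRKO (1.28 ± 0.18, adjusted p = 0.00144). Ube2c, the ubiquitin-conjugating enzyme of that complex, was at 16.2, 20.9, 18.1, 20.2 and 24.5 CPM in the WT libraries and 43.6, 45.1, 35.7, 52.2 and 54.1 CPM in LAIRKO (1.21 ± 0.15, adjusted p = 0.000661). In both genes the lowest LAIRKO library, replicate 3, lay above the highest WT library. Per length Cdc20 was among the more abundant members, at 13.05 CPM per kilobase in WT and 31.7 in LAIRKO.

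Both proliferation markers were higher. Mki67, the coat protein of mitotic chromosomes, stood at 40.2, 45.2, 33.2, 32.2 and 46.6 CPM in the WT libraries and 90.9, 87.8, 79.8, 124 and 119 CPM in LAIRKO (1.35 ± 0.15, adjusted p = 0.000461). Top2a, the topoisomerase that untangles sister chromatids, was at 68.3, 68.8, 51.0, 67.5 and 75.1 CPM in the WT libraries and 137, 163, 106, 247 and 255 CPM in LAIRKO (1.46 ± 0.22, adjusted p = 0.00200). Neither gene showed overlap, and all 5 WT libraries held both transcripts well above the count filter.

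Members differed in level as well as in change. Length here is the union of all annotated exons of a gene, which can be longer than the transcripts made. Levels per length can therefore be too low, by amounts that differ between genes, and their ranks are approximate. In WT the levels per length ran from 0.819 CPM per kilobase for Cenpf to 30.0 for Bub3. The order at the top was Bub3, Mis12, Zwint, Mad1l1 and Hjurp (30.0 ± 1.17, 23.9 ± 2.55, 22.1 ± 1.07, 17.6 ± 0.752 and 17.5 ± 2.60 CPM per kilobase; SD, n = 5), and among these the neighbours after Bub3 lay within about 1 SD of each other, apart from the step from Zwint to Mad1l1. None of these 5 passed the test. Among the 10 members with the highest WT level 4 were called, with a median log2 fold change of 0.37, and among the 10 with the lowest 8 were called, with a median of 1.38. Across the 52 members Spearman's rho between the WT level and the fold change was -0.44, and it was -0.25 when the level was the mean of both groups. These values describe genes measured in the same libraries, and the WT level enters both the x and the y value of the first.

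**Figure D4:**
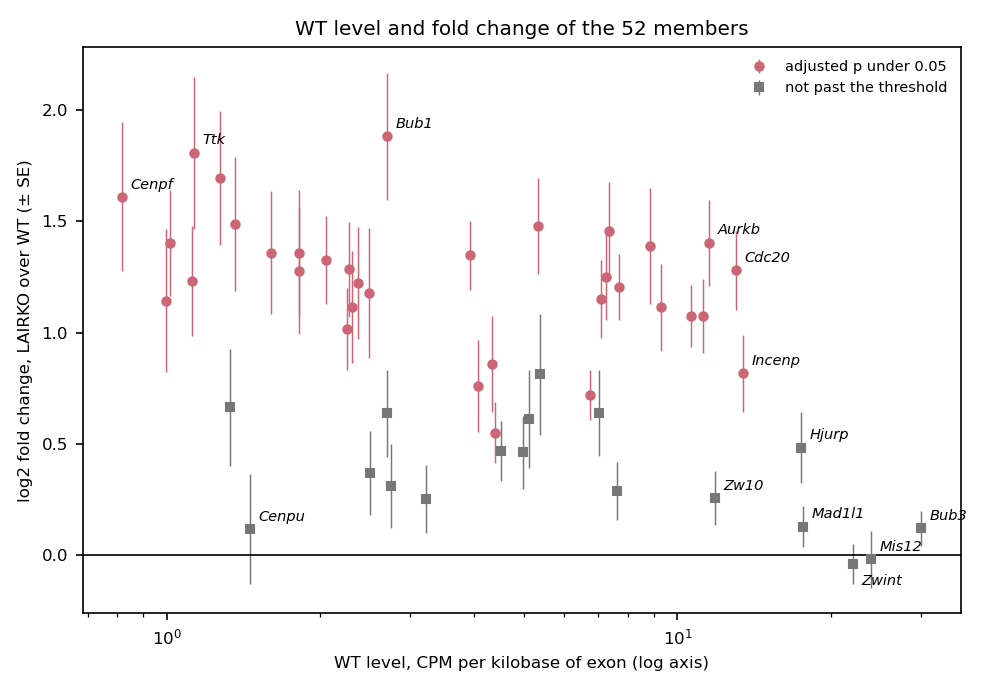
WT level of each member in CPM per kilobase of exon (log axis) against its log2 fold change with SE, with members past the edgeR threshold as circles and the rest as squares. Mad1l1, Zwint, Mis12 and Bub3 lie at the right end close to 0, while Bub1 and Ttk lie highest.

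A widely used single-cell G2/M signature contains 17 of the members. Of these 15 were higher, with a median log2 fold change of 1.28, and the other 2 were Hjurp and Ndc80. Of the 35 members outside it 19 were higher, with a median of 0.81. Both shares stood above the 5.11% of all tested genes called higher, and the difference between them was not tested.

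The other genes of the mitotic pathway, in lists that hold no member, had 38 of 100 tested genes higher and none lower. Over all tested genes the shares were 5.11% higher and 1.68% lower. Among further kinetochore genes 5 of 16 rose, among them Spdl1 (1.20 on the log2 scale), which recruits dynein, Cenps (0.93), a histone-fold subunit, Trip13 (0.89), which takes the checkpoint complex apart, and Kntc1 (1.79), the large RZZ subunit. For the core and regulators of the anaphase-promoting complex it was 2 of 18, Cdc16 (0.53), a scaffold subunit, and Fbxo5 (0.76), its inhibitor before mitosis. Mitotic entry genes had 11 of 18 higher, among them Ccnb2 (1.43) and Ccna2 (1.47), cyclins that activate Cdk1, and the kinase Melk (1.53). Of 8 condensin genes, which compact mitotic chromosomes, 5 rose, among them Ncapg (1.56), Ncaph (1.06) and Smc2 (0.64). Of 13 cohesin genes 2 rose, Cdca5 (1.35), which encodes sororin, and Esco2 (1.21), an acetyltransferase that acts in S phase. The spindle and midbody list had 11 of 12 higher, with Hmmr (1.65), Nusap1 (1.31) and Dlgap5 (1.31) among them, and Numa1 (0.10, adjusted p = 0.858) as the exception. Of 15 regulators of mitotic transcription 2 passed, Mybl2, which encodes B-MYB, and Foxm1. Mybl2 had means of 6.72 CPM in WT and 15.99 CPM in LAIRKO (1.25 ± 0.27 on the log2 scale, adjusted p = 0.0145). Foxm1 had means of 16.1 CPM in WT and 35.5 CPM in LAIRKO (1.14 ± 0.25, adjusted p = 0.0161). In both, LAIRKO replicate 3 (9.28 and 16.9 CPM) lay below WT replicate 5 (10.7 and 20.8 CPM). Without LAIRKO replicates 4 and 5, or without WT replicates 1 and 4, 24 of the pathway genes passed. The shares of all genes called in these fits were 2.67% and 2.40%.

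The summed level of the 52 members was 1452, 1651, 1384, 1491 and 1691 CPM in WT replicates 1 to 5 and 2307, 2545, 2087, 3053 and 3058 CPM in LAIRKO replicates 1 to 5. The groups did not overlap, and in LAIRKO the order from low to high was replicate 3, 1, 2, 4 and 5. Markers of other cell types were read in the same libraries. The 12 myeloid progenitor genes summed to 1127, 1945, 1130.1, 1421 and 1293 CPM in WT and 4444, 4693, 4015, 6227 and 7782 CPM in LAIRKO, which placed the LAIRKO libraries in the same order, and 10 of the 12 rose (8 without LAIRKO replicates 4 and 5, and 8 without WT replicates 1 and 4). Mpo, the myeloperoxidase of granule precursors and the most abundant of them in LAIRKO, was at 518 ± 233 CPM in WT and 3401 ± 1142 CPM in LAIRKO, and Calr, a chaperone made in most cells, led in WT at 530.2 ± 42.7 CPM. The 12 nonclassical monocyte genes, among them Itgal, the most abundant, summed to 9662 to 12469 CPM in WT and 7670.2 to 10538 CPM in LAIRKO, with the LAIRKO libraries in the reverse order. Among them Cebpb varied widely, at 235 to 1926 CPM in WT libraries and 91.6 to 977 CPM in LAIRKO. In WT neither order held: replicate 5 had the highest member sum, replicate 2 the highest progenitor sum and replicate 1 the lowest nonclassical sum.

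**Figure D5:**
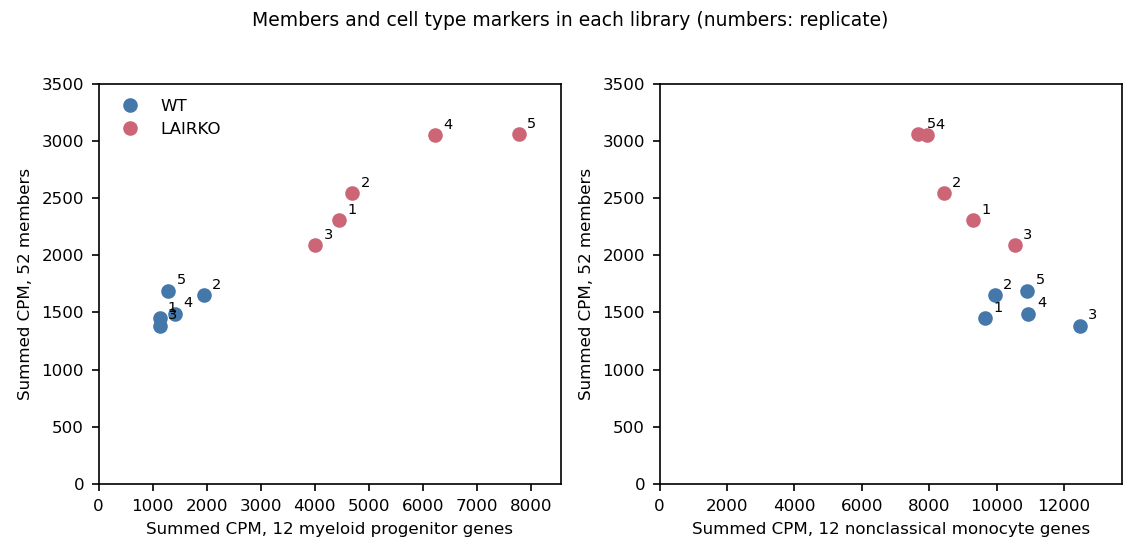
Summed CPM of the 52 members in each library against the summed CPM of 12 myeloid progenitor genes (left) and of 12 nonclassical monocyte genes (right), with the replicate number beside each point. All LAIRKO points lie at or above 2087 CPM on the vertical axis and all WT points at or below 1691 CPM, and LAIRKO replicates 4 and 5 lie farthest from WT in both panels.

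Among markers of other marrow cell types, 2 classical monocyte genes and 1 gene of the T and NK list rose. No gene of the erythroid, neutrophil, B cell or platelet list did. Mpo, Elane, Prtn3 and Ctsg, which encode granule proteins, were counted in the myeloid progenitor list, and each rose. Of 10 erythroid genes 4 were lower and none higher, and their sum was 95.3 to 1326 CPM in WT and 47.0 to 139 CPM in LAIRKO, where haemoglobin Hbb-bs was the most abundant. WT replicate 2 alone was at 1326 CPM and the other 4 WT libraries were at 95.3 to 338 CPM, which takes the WT mean from 430 to 206 CPM without it. All 4 calls were lost without WT replicate 2 or 3 or LAIRKO replicate 1, 4 or 5, and 1 erythroid gene was called without LAIRKO replicate 2 or 3. Of 10 neutrophil genes none passed (377 to 1964 and 985 to 1606 CPM, Ngp the most abundant). The B cell list summed to 967 to 1402 CPM in WT and 919 to 1401 CPM in LAIRKO, nearly all of it Ighm, and none of its 7 tested genes passed. The precursor markers Vpreb1, Igll1 and Rag1 were at or below 1.08 CPM in every library. Dntt, of the same list, was higher, at 5.24 ± 3.35 CPM in WT and 9.04 ± 3.38 CPM in LAIRKO (SD, n = 5 each). Its groups overlapped, and the difference did not pass (0.79 on the log2 scale, adjusted p = 0.342). Vpreb3 averaged 1.44 CPM in WT and 0.599 CPM in LAIRKO and did not pass either (-1.25, adjusted p = 0.139). In the T and NK list Nkg7 rose (means of 11.1 CPM in WT and 28.2 CPM in LAIRKO). This call was lost without WT replicate 1 or 3 or LAIRKO replicate 5. Cd3e, Cd3g, Klrb1c, Ncr1 and Trbc2 were at or below 0.530 CPM in every library, with Ncr1 at 0 in all LAIRKO libraries. Among the platelet genes 1 of 3 tested, Pf4, was lower and none higher (7.07 to 152 and 3.25 to 11.6 CPM). WT replicate 5 alone reached 152 CPM, mostly from Ppbp and Itga2b, and the other WT libraries were at 7.07 to 27.9 CPM. Without WT replicate 5, and in every other fit with 1 library or a pair left out, 1 platelet gene was called lower. Of 7 tested classical monocyte genes 2 rose, F13a1 among them, and the sums overlapped (892 to 1439.7 and 1128 to 1469.7 CPM, Ccr2 the most abundant). Ccr2 went the other way, with means of 648 CPM in WT and 423 CPM in LAIRKO. It did not pass (-0.62 on the log2 scale, adjusted p = 0.0588). Of the 7 fold changes 5 were above 0. Without WT replicate 5, 1 gene of this list was called lower.

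Antisense genes overlapped the exons of 18 members, of which 11 rose, and 23 of the 34 members with no such overlap rose. Over all tested genes 5.11% were called higher. Of the 20 antisense partners 12 were tested, and among these only Nusap1 passed. The other 8 had means of at most 10.5 counts. Elovl1, which overlaps 2.84% of the exons of Cdc20, had a mean of 2300 counts against 580 for Cdc20, and Derl2, which overlaps 7.69% of those of Mis12, had 1580 against 976. Tnnc2, which overlaps 22.8% of those of Ube2c, had 0 counts. Sgo2b, a close copy of Sgo2a, had a mean of 0.1 counts. The strand setting of the counting is not stated in these sources, so where the partner is expressed, part of the counts could belong to it.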

How the data were processed

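The authors deposited raw read counts for 52636 Ensembl genes in 10 libraries, with no normalization. The submitters' processing notes name GSNAP and GRCm38.p5. The counting tool, annotation release and strand setting: not given in the sources used here. Columns were matched to libraries by the identifier in each title, and 0 columns were left over. Symbols, positions and exon lengths came from GENCODE M21 (52403 identifiers matched). The exon length of a gene is the union of its annotated exons over all transcripts. Within groups, every pair of libraries differed beyond sampling noise (chi-square over its degrees of freedom 15.6 to 79.3).

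Counts were fitted in R 4.3.3 with edgeR 4.0.16: filterByExpr by group (minimum count 10, minimum total 15), TMM, glmQLFit and glmQLFTest with no covariate, Benjamini-Hochberg adjustment over 13469 genes, threshold 0.05. Adjusted p-values are two-sided and from edgeR unless another tool is named. Log2 fold changes are LAIRKO minus WT, and their SE comes from the F statistic. All 52 members reached the count filter in all 5 WT libraries. The fit was run on simulated counts drawn independently for each gene and library, so that run did not cover changes shared by libraries. The members, the lists and the genes given by library (in each of 10 roles the 2 smallest p, the highest WT level per length and the smallest change) were chosen with earlier results of these data known. Some other genes are named after their values were seen, and some listed genes are not reported here. Alternatives used DESeq2 1.42.0, limma 3.58.1 and mgcv 1.9.3. Replicate numbers are shared between groups, but same-numbered libraries deviated with correlations of -0.08 to 0.05, so they were not treated as pairs.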

Additional observations from a re-analysis of the deposited data

Results flagged for a closer look

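Of 104 groups of 5 values (52 members in 2 genotypes), 6 held a library far from the other 4, where chance flags about 1 group in 20. In LAIRKO, Cenpm was lowest in replicate 3 at 7.82 CPM (the next value was 15.7), Cenpo in replicate 1 at 22.6 CPM (28.7), and Zwint in replicate 4 at 81.1 CPM (97.7). Spc24 was highest in LAIRKO replicate 2 at 57.5 CPM (43.0). In WT, replicate 5 was highest for Cenpu at 8.91 CPM (5.73) and for Knstrn at 35.9 CPM (20.7).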

How the results depend on the processing

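The count of 34 members, all higher, was 18 without LAIRKO replicates 4 and 5 and 18 without WT replicates 1 and 4, each with fewer libraries. It was 27 to 37 when 1 library was left out, with 3.89% to 8.56% of all genes called. The scaling, filter, tool and GC settings gave 32 to 39. Of these, the fits with 32 members called 3.24% to 7.06% of all genes. The 3.24% belongs to the fit with no filter, which called 910 genes out of a larger set of 28060. Library totals (39 members) called 10.2% of all genes and DESeq2 (38 members) 11.3%. No member was called lower under any alternative run. The median of the members was 0.79 without LAIRKO replicates 4 and 5 and 0.99 to 1.19 with 1 library left out. The 38 pathway genes became 24 and 24 without these pairs and 30 to 44 with 1 library left out. The 914 genes called in all became 1379 with library totals (90.1% higher, against 75.3%), 1516 with DESeq2, 951 with the GC and length trend removed (63.5% higher), 376 without LAIRKO replicates 4 and 5 (62.8% higher), 338 without WT replicates 1 and 4, 1474 at an adjusted p under 0.1, and 535 to 1170 with 1 library left out. The cause of the changes with scaling and tool was not tested. Of 1144 member values under the alternatives, 1041 kept their direction and side of the threshold, 76 lost the call, 17 gained it and 10 changed sign, none of them called. The sign changes were Mis12 with library totals (0.109), without LAIRKO replicates 4 and 5 (0.0731) and with 1 library left out (-0.0984 to 0.0415, above 0 without WT replicate 2 or LAIRKO replicate 1 or 4), Zwint with library totals (0.0908), without LAIRKO replicates 4 and 5 (0.0181) and with 1 library left out (-0.0651 to 0.0118, above 0 without LAIRKO replicate 4), and Cenpu without LAIRKO replicates 4 and 5 (-0.0858) and without WT replicates 1 and 4 (-0.0590). With the replicate number as a block 33 members and 600 genes passed. Correlations between same-numbered libraries were -0.08 to 0.05, and no WT library correlated best with the LAIRKO library of its own number. The numbers are therefore not known to pair libraries. Lair1 had a log2 fold change of -11.49 to -10.29 with 1 library left out. For low members the counts limit the precision: the smallest count was 17.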
